A study of Mus musculus with 8 samples.

Results

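Ventricular cardiomyocytes (CMs), the muscle cells of the pumping chambers of the heart, were examined in nuclei of Taz-KO and WT mouse hearts. A nucleus was placed in this population by its own transcripts. It had at least 800 unique molecular identifiers (UMIs, each a counted RNA molecule) outside mitochondrial genes. Its share of UMIs from Ryr2, Ttn, Fhod3, Ctnna3 and Rbm20 was at least 1.2 times the share of its whole library. The shares of Gpc6, Bicc1 and Pdgfra (fibroblasts), of Ptprb, Flt1 and Cyyr1 (endothelial cells) and of F13a1, Mrc1 and Cd163 (macrophages) were at most 1 times that of the library, and the share of Myl7, Myl4, Sln and Dkk3 (atrial CMs) at most 3 times. The rule kept 27389 nuclei, which is 16.4% of the 167504 barcodes with enough UMIs. There were 169193 barcodes in all. The nuclei were thus chosen by the measured UMIs of these 18 genes, whose values are given below as a description and which are left out of all counts of genes.

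The hearts came from 4 male WT mice and 4 male mice with a knockout of Taz, all 9 weeks old. Each whole heart gave 1 library of nuclei, so the mouse is the replicate, and mice are named by their numbers. How the Taz gene was disrupted, and in which cells, is not given in the sources used here. WT mice 4686, 4909, 5355 and 5356 gave 3705, 4947, 3891 and 3505 ventricular nuclei, and Taz-KO mice 4685, 4910, 5300 and 5301 gave 163, 6199, 4422 and 557. Taz-KO libraries 4685 and 5301 stood apart, with 3492 and 5571 barcodes in all against 21190 or more in the other 6 libraries. The summed UMIs of the ventricular nuclei, outside mitochondrial genes, ranged from 4587033 in Taz-KO mouse 4685 to 95454751 in Taz-KO mouse 4910. Every pair of libraries had some barcode sequences in common, between 2 and 294 a pair. The median number of UMIs per nucleus was 9621 to 13352 in WT and 7612.5 to 24274 in Taz-KO (exact two-sided permutation test, p = 0.686), and mitochondrial genes took 4.49 to 16.8% of the UMIs in WT and 0.338 to 11.6% in Taz-KO (p = 0.343). The lowest of these shares were those of Taz-KO mice 4685 (1.48%) and 5301 (0.338%), against 4.49% or more in the other 6 mice.

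Tafazzin, the product of Taz, remodels the fatty acid chains of cardiolipin, a lipid of the inner mitochondrial membrane that holds the respiratory chain in place. Its loss causes Barth syndrome, in which the heart muscle is weak. CMs draw most of their energy from the oxidation of fatty acids in mitochondria, and they contract when a small entry of calcium through the surface membrane releases more calcium from internal stores. Impaired mitochondria can switch on the integrated stress response, in which the transcription factor Atf4 raises genes for amino acid synthesis, amino acid transport and the charging of tRNA.

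Summed over the 5 CM genes of the rule, the level was 42472 to 60976 CPM (UMIs of a gene per 1000000 UMIs outside mitochondrial genes, after summing the nuclei of a mouse) in WT and 37163 to 54763 in Taz-KO, against 2816 to 7004 in fibroblast nuclei of the 8 hearts. The 1254 nuclei just inside the threshold, with an enrichment of 1.2 to 1.3, held 20111 to 38597 CPM of these genes. The 929 nuclei just outside, between 1.1 and 1.2, held 18010 to 35459 CPM. Both edges held mostly Taz-KO nuclei. Taz-KO mouse 4910 gave 572 inside and 456 outside, against 54 to 114 and 26 to 90 in the WT mice. Taz-KO mice 4685, 5300 and 5301 gave 1, 265 and 45 inside. An enrichment of at least 2 was reached by 121, 1275, 1586 and 157 nuclei in Taz-KO mice 4685, 4910, 5300 and 5301. These mice had 163, 6199, 4422 and 557 ventricular nuclei. In WT mice 4686, 4909, 5355 and 5356 it was reached by 2202, 2498, 1997 and 1519 nuclei. Those mice had 3705, 4947, 3891 and 3505 ventricular nuclei.

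The word ventricular in the name rests on few atrial transcripts, not on ventricular ones. Atrial markers (Nppa, Mybphl, Bmp10, Kcnj3, Sbk2 and Sbk3) summed to 668 to 937 CPM in WT and 132 to 419 in Taz-KO ventricular nuclei, and to 2318 to 5022 CPM in atrial nuclei. A list of 8 ventricular markers, among them Myl2, Irx4 and Hey2, did not separate the populations: it summed to 5726 to 8904 CPM in ventricular and 5494 to 9513 CPM in atrial nuclei of WT hearts, with Myl2 at 1950 and 2066 CPM. The Myl2 level was higher still, at 4767 CPM in WT, in the tenth of barcodes with the fewest UMIs, which stand in here for RNA free in the suspension.

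Markers of non-muscle cells were present. Fibroblast markers summed to 508 to 2620 CPM in WT and 91.0 to 1929 CPM in Taz-KO, against 4336 to 10407 CPM in fibroblast nuclei. Their summed level was 15.6 to 28.9% of that in the barcodes with the fewest UMIs of the same WT heart, and 4.71 to 26.1% in Taz-KO, with the lowest values in Taz-KO mice 5301 (4.71%) and 4685 (10.8%). Those barcodes were of unlike depth between libraries, so the shares of different mice are not strictly comparable. Endothelial markers summed to 204 to 336 CPM in WT and 38.3 to 355 CPM in Taz-KO, macrophage markers to 231 to 428 and 246 to 432 CPM, and pericyte and smooth muscle markers to 119 to 262 and 154 to 389 CPM. Of those 29 markers, 1 was called higher in Taz-KO, Acta2, at 20.7 ± 9.5 CPM in WT and 132 ± 97.5 CPM in Taz-KO, a call lost on leaving out any WT mouse or Taz-KO mouse 5300. Markers of adipocytes, mesothelial cells, lymphocytes and Schwann cells summed to at most 58.4 CPM in any mouse, and none of their 19 tested members was called. The part of this foreign RNA in the results below was not tested beyond repeating the calls after subtractions of ambient RNA. For some genes, the level in fibroblasts, endothelial cells or the barcodes with the fewest UMIs is given beside a result where it is near that in CMs. A gene without such a level is not shown to be specific to CMs.

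Taz itself, at chrX:74281912-74290151 on the plus strand (GENCODE positions on GRCm38), was lower in Taz-KO. Its level was 53.0, 48.5, 53.9 and 47.5 CPM in WT mice 4686, 4909, 5355 and 5356. It was 44.7, 37.3, 28.8 and 30.7 CPM in Taz-KO mice 4685, 4910, 5300 and 5301. Every Taz-KO mouse lay below every WT mouse, but most of the signal remained, and the log2 fold change was -0.58 (SE 0.17, edgeR quasi-likelihood F test with Benjamini-Hochberg adjustment, adjusted p = 0.0492). Reads anywhere in the gene were counted, introns included, and Dnase1l1 overlaps it on the other strand, so the remaining UMIs do not test whether a working transcript was made. The call was lost on leaving out any mouse other than Taz-KO 4685 (adjusted p between 0.0675 and 0.107).

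Across all genes, 1636 of 18713 (8.74%) were higher and 1094 (5.85%) lower in Taz-KO at an adjusted p below 0.05, with a median log2 fold change of -0.0015 over all genes. At the stricter thresholds that the study used for single nuclei, an adjusted p below 0.001 and an absolute log2 fold change above 0.58, there were 344 genes (1.84%), 230 higher and 114 lower. The mice of the genotypes did not overlap for 3953 genes (21.1%). Without Taz-KO mice 4685 and 5301, 1217 genes were higher and 672 lower. Without WT mouse 4909, 947 were higher and 715 lower. Counts in the gene lists below are to be read beside the shares of 8.74% higher and 5.85% lower over all genes.

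**Figure D1:**
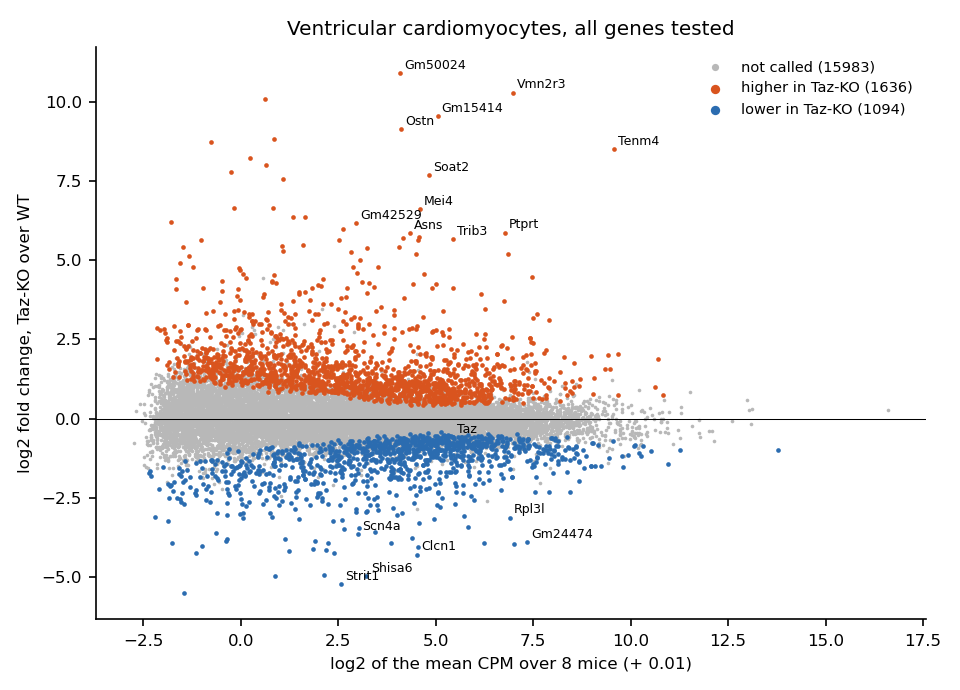
Each point is 1 of 18713 genes in ventricular CMs, with log2 of its mean CPM over 8 mice (plus 0.01) on the x axis and the log2 fold change of Taz-KO over WT on the y axis. The 1636 genes called higher (orange) reach a log2 fold change of 10.92 for Gm50024, and among the 1094 called lower (blue) Strit1 lies at -5.23.

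Many genes of the integrated stress response were higher in Taz-KO, in each of 4 lists. Of 13 amino acid transporters, 8 were higher in Taz-KO and none lower (median log2 fold change 2.05). Of 18 enzymes of serine, one-carbon, asparagine, proline and cysteine metabolism, 13 were higher and none lower (median 1.78), and of 20 cytosolic aminoacyl-tRNA synthetases 13 were higher and none lower (median 1.36). Among 19 transcription factors, sensors and feedback genes of the response, 8 were higher and 1 lower (median 0.66). In the same order, the mice did not overlap for 8 of 13, 14 of 18, 17 of 20 and 10 of 19 members, against 21.1% of all genes.

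The promoters of these genes were searched for the letters TGATGNAA or their reverse complement TTNCATCA, the core of the element to which Atf4 binds together with C/EBP factors. RefSeq windows (GRCm38) from 250 bases before to 50 bases after the transcription start were at hand for 32 of the 42 members called higher, and 12 of the 32 (37.5%) held a match, in the window as a whole. A match was found in 2 of 21 other members (9.52%), in 1219 of all 27025 genes with a window (4.51%) and in 49 of 1042 genes called higher (4.70%). The upstream part of 4 of the windows is shown to let the matches be seen, with the matching letters in capitals, 5′ to 3′ on the strand of the gene. Slc7a11 (chr3:50443614-50443729, minus strand) had 2 matches, which begin 66 and 47 bases before the start, and Chac1 (chr2:119350999-119351106, plus strand), Pycr1 (chr11:120643794-120643901, minus strand) and Gars (chr6:55037921-55038000, plus strand) had 1 each, at 193, 103 and 30 bases.
Slc7a11: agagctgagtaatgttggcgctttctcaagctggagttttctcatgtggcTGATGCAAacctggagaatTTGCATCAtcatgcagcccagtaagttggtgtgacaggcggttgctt
Chac1: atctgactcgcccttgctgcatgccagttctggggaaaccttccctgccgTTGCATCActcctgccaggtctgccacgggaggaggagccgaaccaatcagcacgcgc
Pycr1: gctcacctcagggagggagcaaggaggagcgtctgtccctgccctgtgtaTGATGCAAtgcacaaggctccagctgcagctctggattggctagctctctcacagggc
Gars: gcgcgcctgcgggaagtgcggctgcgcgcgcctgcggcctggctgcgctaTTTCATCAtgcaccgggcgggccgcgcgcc
A match is a description of the letters and not a measured binding site. Asns, Nupr1, Aars and Tars also had an upstream match, at 23, 110, 112 and 15 bases before the start.

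Trib3, a pseudokinase that Atf4 induces and that feeds back on it, was at 1.29, 2.36, 1.78 and 1.01 CPM in WT mice 4686, 4909, 5355 and 5356. It was at 127, 55.4, 88.4 and 70.4 CPM in Taz-KO mice 4685, 4910, 5300 and 5301. The lowest Taz-KO mouse, 4910, was far above the highest WT mouse, with a log2 fold change of 5.66 (SE 0.32, adjusted p = 3.68e-06). Sesn2, a stress-induced inhibitor of growth signalling, was tight within each genotype, at 2.41 ± 0.0918 CPM in WT and 27.8 ± 6.85 CPM in Taz-KO (SD, n = 4 mice each here and below; log2 fold change 3.45, adjusted p = 3.07e-06). Chac1, which degrades glutathione, rose from 1.03 ± 0.504 to 17.7 ± 10 CPM (3.98, adjusted p = 0.000327), and Nupr1, a stress-induced nuclear protein, from 7.86 ± 4.02 to 39.0 ± 8.21 CPM (2.27, adjusted p = 0.0059). Ddit3, a factor that can promote cell death under stress, rose by 1.21 on the log2 scale (adjusted p = 0.010). With an ambient share of 0.2 subtracted, 5 of the 8 calls of this list were left and that of Ddit3 was not among them.

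Upstream in the response, Atf4 itself was at 34.8 ± 8.0 CPM in WT and 51.8 ± 26.0 CPM in Taz-KO, which did not pass the test (adjusted p = 0.29); its activity is known to be set by translation rather than by its RNA. Of the 4 kinases that start the response, Eif2ak3, which senses the endoplasmic reticulum, was called higher (0.60, adjusted p = 0.0388), a call lost without Taz-KO mice 4685 and 5301 and on leaving out any mouse other than WT 5356 or Taz-KO 5300, while Eif2ak1, which relays mitochondrial stress, Eif2ak4, which senses uncharged tRNA, and Eif2ak2, which senses double-stranded RNA, were at log2 fold changes of 0.16, -0.11 and -0.54 (adjusted p = 0.585, 0.763 and 0.191). Dele1, which carries the mitochondrial signal to Eif2ak1, fell by 0.60 (adjusted p = 0.0165), and no member of the list was called lower without WT mouse 4909.

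Asns, which makes asparagine, was at 0.627, 0.939, 0.832 and 0.168 CPM in WT mice 4686, 4909, 5355 and 5356, and at 46.2, 26.9, 53.9 and 31.1 CPM in Taz-KO mice 4685, 4910, 5300 and 5301. It was nearly silent in each WT heart and raised in each Taz-KO heart (log2 fold change 5.86, SE 0.41, adjusted p = 1.51e-05). The first enzyme of serine synthesis, Phgdh, rose from 1.07 ± 0.558 to 20.1 ± 6.37 CPM (4.16, adjusted p = 0.000163), and Psat1, the next enzyme, from 1.24 ± 0.399 to 11 ± 3.41 CPM (3.07, adjusted p = 6.09e-05). Mitochondrial one-carbon enzymes rose with them: Mthfd2 from 7.39 ± 2.05 to 53.0 ± 10.9 CPM (2.78, adjusted p = 1.01e-05) and Aldh1l2 from 6.06 ± 2.16 to 66.9 ± 10 CPM (3.40, adjusted p = 5.53e-05). Aldh18a1 and Pycr1, both of proline synthesis, rose by 3.2 and 3.02 on the log2 scale. Some of these transcripts were as frequent outside CMs in Taz-KO hearts, among them Asns, at 29.0 CPM in fibroblasts and 41.6 CPM in endothelial cells, and Phgdh, at 20.1 and 28.1 CPM. Levels outside CMs are not given for the others. Within endothelial cells, 9 of the 18 enzymes passed the test, with a median log2 fold change of 1.30 over the list.

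Amino acid transporters followed. Slc7a5, which imports large neutral amino acids, was at 1.31, 1.31, 0.880 and 1.05 CPM in WT mice 4686, 4909, 5355 and 5356. In Taz-KO mice 4685, 4910, 5300 and 5301 it was at 49.3, 25.7, 50 and 49.6 CPM. Mouse 4910 was lower than the other Taz-KO mice and still far above WT (log2 fold change 5.19, SE 0.28, adjusted p = 2.71e-06). Slc3a2, the partner chain of Slc7a5 and of the cystine transporter Slc7a11, rose by 1.78 (adjusted p = 0.000543), and Slc7a11 by 4.12, from 3.09 ± 0.613 to 56.8 ± 15.6 CPM (adjusted p = 3.20e-06). The neutral amino acid carrier Slc1a4 rose from 2.06 ± 0.514 to 41.0 ± 13.5 CPM (4.26, adjusted p = 1.10e-05). The number called higher was also 8 without Taz-KO mice 4685 and 5301, with either subtraction of ambient RNA, and on leaving out any single mouse.

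Among the synthetases, which join amino acids to their tRNAs, Gars rose from 21.7 ± 4.58 to 129 ± 30.2 CPM (log2 fold change 2.52, adjusted p = 2.61e-05). Cars, Yars and Nars rose by 2.33, 2.22 and 2.14. Eprs, the joint enzyme for glutamate and proline, was at 66.7 to 88.2 CPM in WT and 321 to 373 CPM in Taz-KO (2.09, adjusted p = 2.84e-05). Of the 17 mitochondrial synthetases none was called higher, and their median log2 fold change was 0.06. Lars2 was called lower (-1.18, adjusted p = 0.0243), but its level in the barcodes with the fewest UMIs, 2528 CPM in WT, was above the 624 ± 222 CPM of CMs, and the call was lost with both subtractions of ambient RNA and without Taz-KO mouse 4685, WT mouse 4909 or Taz-KO mouse 4910.

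**Figure D2:**
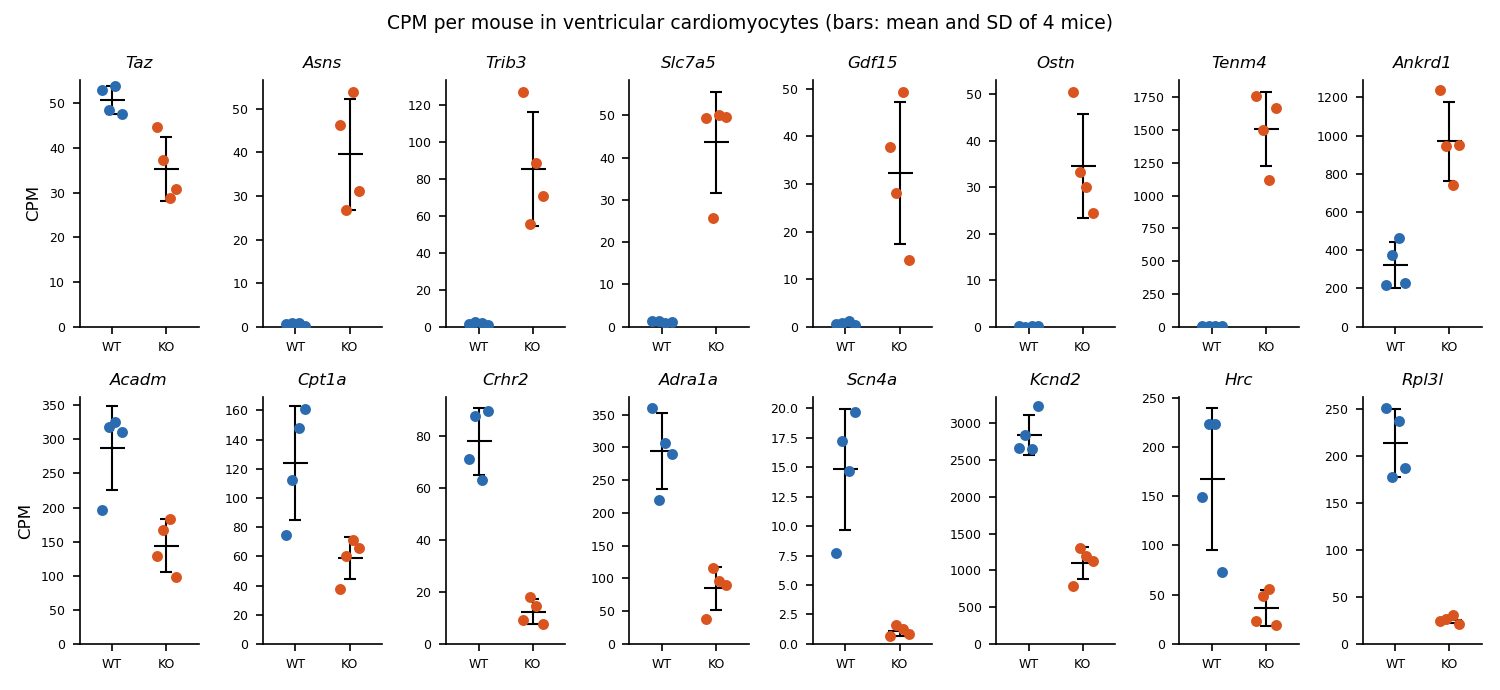
CPM in ventricular CMs on the y axis for 16 genes, with each point 1 mouse (blue WT, orange Taz-KO) and bars at the mean and SD of 4 mice. Trib3, Asns, Slc7a5, Gdf15, Ostn, Tenm4 and Ankrd1 are higher in each Taz-KO mouse, and Acadm, Cpt1a, Crhr2, Adra1a, Scn4a, Kcnd2, Hrc and Rpl3l lower, while Taz falls only in part.

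Stress transcripts were found in more CM nuclei of Taz-KO hearts. Each nucleus was thinned at random to 800 UMIs so that depth did not set the share, and nuclei with at least 1 UMI of 15 stress response genes were counted. The share was 6.53, 8.51, 7.14 and 4.71% in WT mice 4686, 4909, 5355 and 5356. In Taz-KO mice 4685, 4910, 5300 and 5301 it was 52.1, 30.4, 44.1 and 32.0%. No Taz-KO mouse approached WT, and the difference of means was 32.9 percentage points. The 15 genes were Asns, Psat1, Phgdh, Mthfd2, Shmt2, Aldh18a1, Pycr1, Chac1, Trib3, Ddit3, Atf5, Slc7a5, Slc7a11, Gdf15 and Cth. All but Gdf15, a secreted factor described below, belong to the lists above. They were chosen with earlier results known, so the share is a description and no test is given. At least 2 such UMIs were found in 0.276 ± 0.151% of WT nuclei and 10.7 ± 4.0% of Taz-KO nuclei. Before thinning, the shares were 61.4 ± 11% and 96.7 ± 3.71%.

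The same share in fibroblasts reached 14.3 ± 0.561% of WT nuclei and 30.7 ± 10.2% of Taz-KO nuclei, at median depths of 4609 to 6737.5 and 2769 to 7279.5 UMIs per nucleus before thinning. The WT CMs thus had a lower share than the WT fibroblasts. In Taz-KO mouse 4910 the CMs (30.4%) did not exceed the fibroblasts (34.0%), so a share of that size cannot be assigned to CMs alone in that heart. Tenm4 was seen in 49.4 to 62.6% of thinned ventricular nuclei in Taz-KO, 0.231 to 0.351% in WT, and 6.54 to 12% of fibroblast nuclei in Taz-KO. In Taz-KO mice 4910, 5300 and 5301 it was seen in 43.9, 44.5 and 30.4% of atrial nuclei, against 57.0, 49.4 and 56.7% of ventricular ones. It was in none of the 7 atrial nuclei of Taz-KO mouse 4685, and in 0.719% of atrial nuclei at most in WT.

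**Figure D3:**
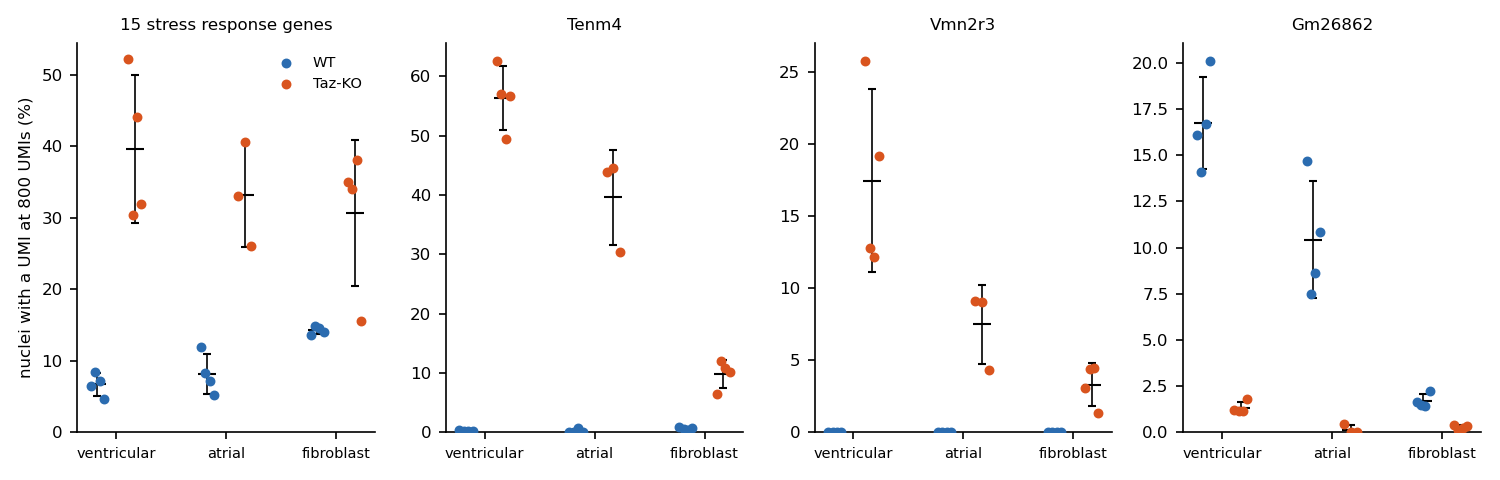
Percent of nuclei, thinned to 800 UMIs, with at least 1 UMI of any of 15 stress response genes or of Tenm4, Vmn2r3 or Gm26862, in ventricular CMs, atrial CMs and fibroblasts. Points are mice (blue WT, orange Taz-KO, 3 Taz-KO mice for atrial CMs), with mean and SD. The stress genes rise in all 3 populations of Taz-KO hearts, while Tenm4 reaches 62.6% in ventricular CMs and 12% at most in fibroblasts, and Gm26862 falls from 14.1 to 20.1% in WT to 1.80% or less in ventricular CMs of Taz-KO.

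Of 25 secreted factors tested, 5 were higher (20%, against 8.74% of all genes) and 4 lower (16%, against 5.85%). Ostn, a muscle-derived peptide (osteocrin or musclin) that prolongs natriuretic peptide signalling, was at 0.0896, 0.0138, 0.0951 and 0.042 CPM in WT mice 4686, 4909, 5355 and 5356. It was at 50.6, 33.4, 30.0 and 24.6 CPM in Taz-KO mice 4685, 4910, 5300 and 5301. The transcript was close to absent in WT and present in each Taz-KO heart (log2 fold change 9.13, SE 0.43, adjusted p = 1.06e-06), with 12.6 CPM in Taz-KO fibroblasts.

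Gdf15 and Fgf21, circulating factors raised in mitochondrial disease, rose as well. Gdf15 was at 0.484, 0.759, 1.28 and 0.357 CPM in WT and 37.7, 28.1, 49.4 and 14.1 CPM in Taz-KO mice 4685, 4910, 5300 and 5301 (log2 fold change 5.41, adjusted p = 3.23e-05). Its level in Taz-KO was no lower elsewhere, at 44.9 CPM in fibroblasts, 67.5 CPM in endothelial cells and 100.4 CPM in the barcodes with the fewest UMIs. Fgf21 rose from 0.0188 ± 0.0232 to 4.16 ± 2.80 CPM, with 7.32 CPM in Taz-KO fibroblasts. Adm2, a vasodilator peptide (intermedin), had no UMI in WT CMs and 3.04 ± 0.523 CPM in Taz-KO, at least 221-fold higher when WT is set to 3 UMIs over the group, with 3.43 CPM in Taz-KO fibroblasts.

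Growth factors of blood vessels and muscle moved both ways. Tgfb2 rose from 48.5 ± 11.4 to 120 ± 31.6 CPM (1.28, adjusted p = 0.0061). Angpt1, a ligand that stabilizes vessels, fell from 397 ± 141 to 82.8 ± 35 CPM (-2.33, adjusted p = 0.00258), and the growth factor Fgf1 from 498 ± 55.6 to 278 ± 31.2 CPM (-0.89, adjusted p = 0.0195), a call lost without Taz-KO mouse 4685. Ctf1 and Nrg4 fell by 0.83 and 0.77 (adjusted p = 0.048 and 0.0396), with Ctf1 lost on leaving out any mouse other than Taz-KO 5301, and Nrg4 without Taz-KO mouse 4685 or 5300 or WT mouse 4909, 5355 or 5356. The number of factors called lower was 1 without Taz-KO mouse 4685, and 2 without Taz-KO mouse 5300, WT mouse 4909, 5355 or 5356, or both 4685 and 5301.

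Of 16 enzymes of mitochondrial beta-oxidation, which burns fatty acids, 11 were lower in Taz-KO and none higher, and all 16 estimates were below 0 (median log2 fold change -0.93). The median for the same genes was -0.59 in atrial CMs, -0.60 in fibroblasts and -0.46 in endothelial cells, with none called there. Acadm, the dehydrogenase for medium-chain fatty acids, was at 196, 319, 326 and 310 CPM in WT mice 4686, 4909, 5355 and 5356. It was at 129, 166, 184 and 98.3 CPM in Taz-KO mice 4685, 4910, 5300 and 5301. The genotypes did not overlap, although WT mouse 4686 lay close to the highest Taz-KO mouse (log2 fold change -1.07, SE 0.21, adjusted p = 0.00724), and the call was lost without Taz-KO mice 4685 and 5301 (adjusted p = 0.0646).

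Acaa2, the last enzyme of the cycle, fell from 192 ± 48.2 to 57.3 ± 25.3 CPM (-1.83, adjusted p = 0.00299), and Decr1 and Hsdl2 fell by 1.10 and 1.22, with Hsdl2 lost without Taz-KO mouse 4685 or 5300 or WT mouse 5355 or 5356. The chains of the trifunctional protein, Hadha and Hadhb, fell by 1.00 and 0.98 (adjusted p = 0.0166 and 0.0276), with Hadhb lost without Taz-KO mouse 4685 or 5301 or WT mouse 4909, 5355 or 5356. Decr1, Hsdl2, Hadha and Hadhb were all lost with an ambient share of 0.2 subtracted and without Taz-KO mice 4685 and 5301. With that share subtracted, their log2 fold changes were larger, at -1.34, -1.38, -1.18 and -1.38. The count of 11 became 6 without Taz-KO mouse 4685 or WT mouse 5355, 5 with an ambient share of 0.2 subtracted, and 3 without Taz-KO mice 4685 and 5301. Acadm and Acaa2 were also frequent outside CMs, at 202 and 177 CPM in WT fibroblasts.

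Of 20 genes of fatty acid uptake and activation, 7 were lower and 13 did not pass (median -0.70). In atrial CMs, fibroblasts and endothelial cells their median was -0.45, -0.48 and -0.32. The count was 4 without Taz-KO mice 4685 and 5301, and 5 without Taz-KO mouse 5300 or WT mouse 5355 or 5356. Lpl, the lipase that frees fatty acids from circulating lipoproteins, fell from 963 ± 243 to 428 ± 125 CPM (-1.24, adjusted p = 0.0061). Its level was 975 CPM in WT fibroblasts and 1229 CPM in WT endothelial cells. The transporter Slc27a1 fell from 266 ± 68.3 to 118 ± 39.1 CPM (-1.25, adjusted p = 0.00881), and Acsl1, which activates fatty acids with coenzyme A, from 520 ± 110 to 231 ± 43.7 CPM (-1.23, adjusted p = 0.00468). Both were far less frequent in fibroblasts, at 41.2 and 155 CPM in WT.

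The gate of the carnitine shuttle has a liver form, Cpt1a, and a muscle form, Cpt1b. Cpt1a was at 74.3, 112, 148 and 161 CPM in WT and 37.9, 60.2, 71.4 and 65.6 CPM in Taz-KO mice 4685, 4910, 5300 and 5301. The genotypes were just apart (-1.13, adjusted p = 0.0249), and the call was lost without Taz-KO mouse 4685, 4910 or 5300 or WT mouse 5355 or 5356 (adjusted p between 0.0563 and 0.0627). Cpt1b was at 186 ± 21.7 and 154 ± 42.0 CPM, a difference that did not pass (adjusted p = 0.278).

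Ppara, the fatty acid receptor that drives these genes, was at 382 ± 77.3 CPM in WT and 486 ± 160 CPM in Taz-KO (adjusted p = 0.537), and Ppargc1a, a coactivator of mitochondrial genes, at 712 ± 100.3 and 748 ± 96.4 CPM (adjusted p = 0.947). Of 18 regulators, 3 were lower: Lpin1, a coactivator and phosphatase, from 259 ± 67.0 to 99.1 ± 13.7 CPM (-1.44, adjusted p = 0.00303), and Rxra and Nrip1 by 0.70 and 0.63, with the Nrip1 call lost without any mouse other than Taz-KO 5301 or WT 5355, and that of Rxra with an ambient share of 0.2 subtracted. There were 5 lower without Taz-KO mouse 5301, and 2 without any other mouse except WT 5355. Of 17 genes known as targets of Ppara, 6 were lower and none higher, and all 17 estimates were below 0 (median -0.79). Their median in atrial CMs, fibroblasts and endothelial cells was -0.61, -0.49 and -0.38. That list shares Acadm, Acaa2 and 8 further genes with the fatty acid lists, and its count was 2 without Taz-KO mice 4685 and 5301.

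Glucose genes changed in both directions, with 5 of 24 higher and 7 lower. The higher ones include Hk1, the hexokinase of most tissues, from 97.1 ± 6.14 to 208 ± 44.3 CPM (1.06, adjusted p = 0.00773), the platelet form of phosphofructokinase Pfkp, from 55.1 ± 9.11 to 116 ± 10.4 CPM (1.02, adjusted p = 0.00582), and the basal glucose carrier Slc2a1 (0.85, adjusted p = 0.0428). The lower ones include muscle forms: the insulin-responsive carrier Slc2a4 (-0.84, adjusted p = 0.0287), the muscle enolase Eno3 (-1.46, adjusted p = 0.000755) and the muscle phosphofructokinase Pfkm (-0.48, adjusted p = 0.0498). Phkg1, the catalytic chain of muscle phosphorylase kinase, fell from 129 ± 15 to 36.3 ± 15.3 CPM (-1.93, adjusted p = 0.000647), and Pfkfb1, which sets the level of a phosphofructokinase activator, from 73.9 ± 10.5 to 17.2 ± 7.33 CPM (-2.14, adjusted p = 0.000564). The counts were 2 higher and 3 lower without Taz-KO mice 4685 and 5301 or without WT mouse 4909, and 3 higher and 4 lower without Taz-KO mouse 4685 or 5301 or WT mouse 5355. There were 2 higher without WT mouse 4686 or 5356, and 4 lower without Taz-KO mouse 5300. The call of Pfkm was lost on leaving out any mouse, that of Slc2a1 any mouse other than Taz-KO 4910 or 5300, and that of Slc2a4 WT mouse 4686 or 4909 or Taz-KO mouse 4910.

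Bdh1, which interconverts the ketone bodies, was the 1 gene called among 14 of pyruvate entry and ketone oxidation, rising from 12.7 ± 4.46 to 47.1 ± 10.8 CPM (1.88, adjusted p = 0.00202). None of 18 citric acid cycle genes passed. Of 82 nuclear-encoded subunits of the respiratory chain and ATP synthase, 80 had estimates below 0. Their median was -0.49, against -0.15 in atrial CMs, -0.38 in fibroblasts and -0.16 in endothelial cells. Only Ndufv3 passed, with an adjusted p of 0.0497. That call was lost on leaving out any mouse other than WT 5356, without which 9 subunits passed, and Ndufv3 was more frequent in WT fibroblasts (148 CPM) than in WT CMs (87.5 CPM). Txnip, an inhibitor of glucose uptake, fell by 1.19 (adjusted p = 0.0176), a call lost without Taz-KO mice 4685 and 5301.

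**Figure D4:**
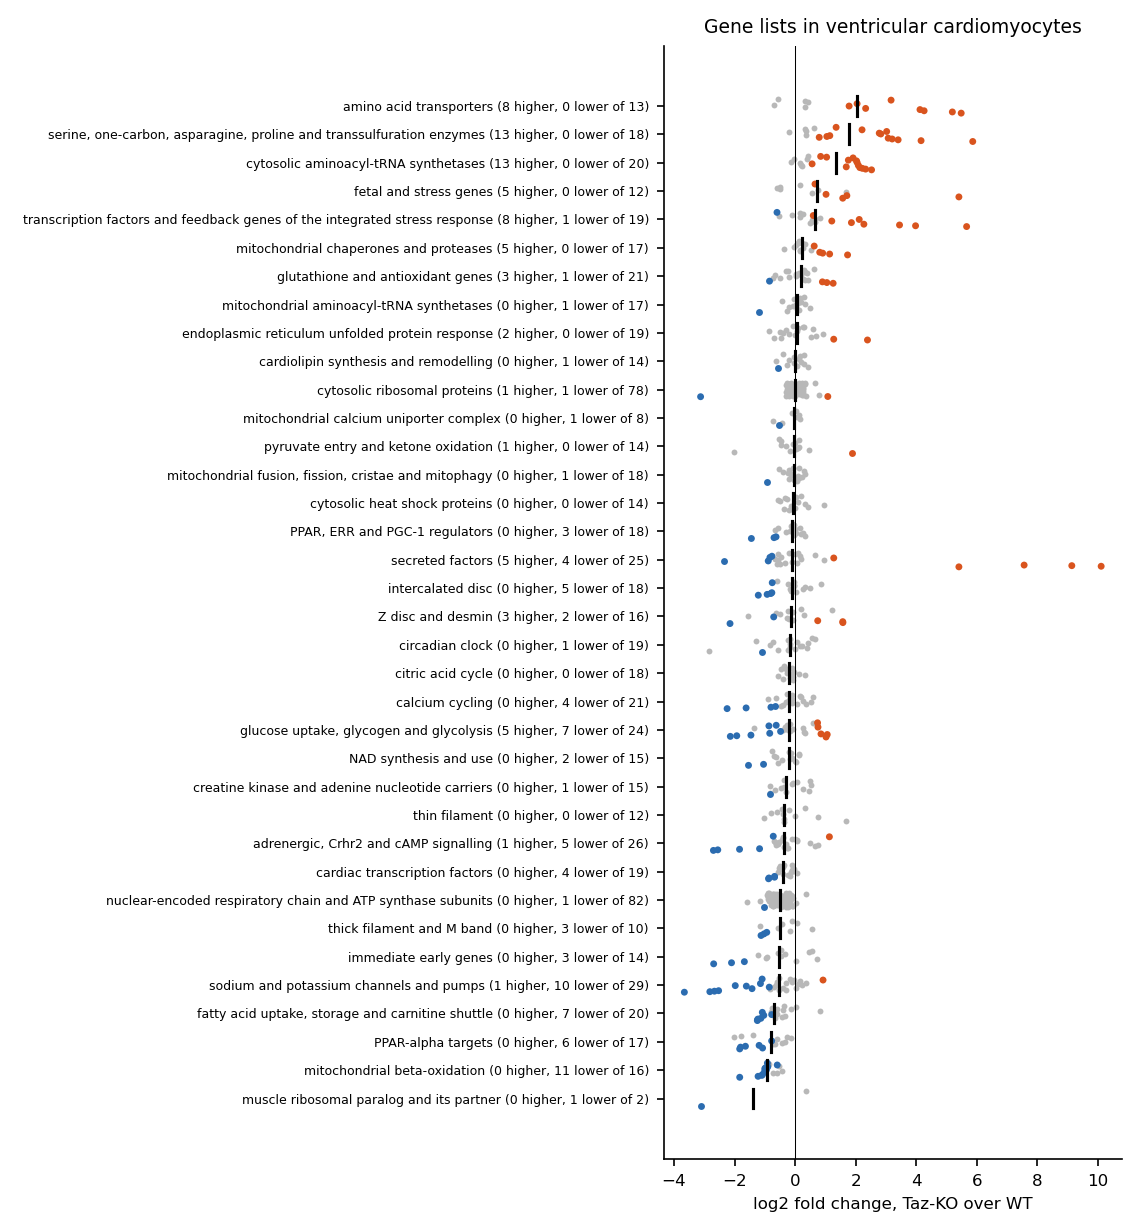
Log2 fold change of Taz-KO over WT in ventricular CMs on one axis for the members of each gene list, with coloured points called at an adjusted p below 0.05 and a black tick at the median. The medians run from 2.05 for amino acid transporters to -0.93 for beta-oxidation, apart from the pair Rpl3l and Rpl3 with a median of -1.39.

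Of 38 genes of the contractile apparatus, 3 were higher and 5 lower (21.1% called, against 14.6% of all genes), and the calls were at the Z disc, thick filament and M band. None of 12 thin filament genes passed, and the main motor Myh6 was at 9014 ± 750 CPM in WT and 8267 ± 1855 CPM in Taz-KO (adjusted p = 0.725). Ankrd1, a stretch-responsive titin partner, was at 217, 374, 467 and 228 CPM in WT mice 4686, 4909, 5355 and 5356. It was at 1239, 946, 740 and 953 CPM in Taz-KO mice 4685, 4910, 5300 and 5301. All Taz-KO mice lay above all WT mice (log2 fold change 1.57, SE 0.28, adjusted p = 0.00411), with 485 CPM in Taz-KO fibroblasts.

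Flnc, an actin cross-linker that gathers at damaged Z discs, rose from 78.6 ± 6.24 to 240.4 ± 65 CPM (1.58, adjusted p = 0.00154). Pdlim5, a Z disc protein, was the other called higher (0.75, adjusted p = 0.0485), a call lost under 12 of 17 alternatives, among them leaving out any mouse other than Taz-KO 5300. Myot, a Z disc protein that binds Flnc, fell from 39.1 ± 11 to 8.85 ± 4.08 CPM (-2.15, adjusted p = 0.00415). Csrp3, a sensor of stretch, fell by 0.71 (adjusted p = 0.0122), a call lost without Taz-KO mice 4685 and 5301. Among 10 thick filament and M band genes, Myom2, Myl2 and Myom3 were lower (-1.13, -1.03 and -0.94). None of those 3 calls was kept without Taz-KO mice 4685 and 5301, Myl2 was lost on leaving out any mouse other than WT 5356 (adjusted p between 0.055 and 0.110), and Myom3 without Taz-KO mouse 4685 or 5300 or WT mouse 4909, 5355 or 5356.

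Of 12 fetal and stress genes, among them genes of the fetal programme that failing hearts re-express, 5 were higher: Ankrd1, Gdf15, Pfkp, Fhl1 and Uchl1, the last of which was lost without WT mouse 4686 or 5355 or Taz-KO mouse 4910 or 5300, and Fhl1 on leaving out any WT mouse or Taz-KO mouse 5301. The best known genes of that programme did not pass: Nppa was at 132 ± 110 and 89.5 ± 56.9 CPM (adjusted p = 0.644), Nppb at 69.6 ± 14.2 and 52.6 ± 24.1 CPM (adjusted p = 0.199), Myh7 at 368 ± 120.3 and 577 ± 237 CPM (adjusted p = 0.214) and Acta1 at 28.4 ± 21.4 and 95.1 ± 65.3 CPM (adjusted p = 0.112). Nppa and Acta1 were more frequent in fibroblasts than in CMs of either genotype. The count was 3 without WT mouse 4686 or 5355.

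Of 21 calcium cycling genes, 4 were lower (19.0%, against 5.85% of all genes), 17 did not pass and none was higher. The calcium pump Atp2a2 was at 3936 ± 465 and 2943 ± 396 CPM (adjusted p = 0.181), and the L-type channel Cacna1c at 7545 ± 1204 and 9336 ± 1932 CPM (adjusted p = 0.60). Cacna1g, a T-type channel, was at 13.7 to 18.6 CPM in WT and 3.92 to 6.05 CPM in Taz-KO (-1.62, adjusted p = 0.001), but at 6.95 CPM in Taz-KO fibroblasts. Stim1 and Orai1, the sensor and channel of store-operated entry, fell by 0.80 and 0.65. Both calls were lost without Taz-KO mice 4685 and 5301, and that of Orai1 also without WT mouse 4686 or 4909 or Taz-KO mouse 5300. With an ambient share of 0.2 subtracted both were lost as well (adjusted p = 0.284 and 0.0768), at larger log2 fold changes of -1.84 and -1.22. Hrc, a calcium-binding protein of the store, was at 149, 224, 224 and 73.2 CPM in WT and 23.5, 48.2, 55.5 and 18.9 CPM in Taz-KO mice 4685, 4910, 5300 and 5301 (-2.25, adjusted p = 0.00415). Its level was higher in WT fibroblasts, at 278 CPM, and the call was lost with either subtraction of ambient RNA. The log2 fold change was then -1.26 with the share set by fibroblast markers and -2.21 with the share of 0.2 (adjusted p = 0.0645 and 0.185). With the share of 0.2, 1 of the 4 calcium calls was left.

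Ion channel genes were mostly lower where they passed: of 29 sodium and potassium channels and pumps, 10 were lower and 1 higher (median -0.55). Markers of the conduction system, some of which are channels of this list, moved with them: all 5 tested had estimates below 0 and 2 were called lower (median -1.11), and their part in the result was not tested. Scn4a, a sodium channel best known from skeletal muscle, was at 7.69, 17.2, 14.7 and 19.7 CPM in WT mice 4686, 4909, 5355 and 5356. It was at 0.654, 1.6, 1.29 and 0.882 CPM in Taz-KO mice 4685, 4910, 5300 and 5301. The highest Taz-KO mouse was well below the lowest WT mouse (log2 fold change -3.66, SE 0.37, adjusted p = 0.000134). Scn4b, a sodium channel beta chain, fell from 5.43 ± 1.75 to 0.882 ± 0.558 CPM (-2.53, adjusted p = 0.00239).

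Of the potassium channels, Kcnd2, of the transient outward current, was at 2643 to 3231 CPM in WT and 792 to 1305 CPM in Taz-KO (-1.42, adjusted p = 0.00276). Kcnj2, of the inward rectifier that holds the resting potential, was at 36.7 to 45.9 CPM in WT and 9.07 to 17.4 CPM in Taz-KO (-1.61, adjusted p = 0.000198). Kcnj3, a channel opened by the muscarinic receptor, fell from 644 ± 129 to 171 ± 68.5 CPM (-1.98, adjusted p = 0.00193). It is also 1 of the 6 atrial markers summed above.

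The pacemaker channels Hcn4 and Hcn2 moved in opposite directions. Hcn4, also a marker of the conduction system, fell from 4.30 ± 0.846 to 0.551 ± 0.506 CPM (-2.66, adjusted p = 0.00318). Hcn2, the main form of the ventricle, rose from 8.60 ± 0.740 to 16.9 ± 1.16 CPM (0.92, adjusted p = 0.00742). On leaving out single mice, 8 to 11 channel genes were called lower, and 9 without Taz-KO mice 4685 and 5301.

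Of 26 receptor and cAMP genes, 5 were lower (19.2%, against 5.85% of all genes), 1 higher (3.85%, against 8.74%) and 20 did not pass. Crhr2, the receptor for urocortins, which raise contractility, was at 71.0, 87.5, 63.1 and 89.4 CPM in WT mice 4686, 4909, 5355 and 5356. It was at 9.16, 18.1, 14.4 and 7.81 CPM in Taz-KO mice 4685, 4910, 5300 and 5301. All Taz-KO mice were far below WT (log2 fold change -2.70, SE 0.26, adjusted p = 9.95e-05). Of the alpha-adrenergic receptors, Adra1a was at 360, 220.1, 307 and 289 CPM in WT and 38.2, 116, 96.0 and 90.0 CPM in Taz-KO (-1.84, adjusted p = 0.00461), and Adra1b fell from 107 ± 63.3 to 19.6 ± 4.59 CPM (-2.55, adjusted p = 0.00724).

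The beta-adrenergic receptor Adrb1 was at 65.3 ± 12.6 and 55.9 ± 9.86 CPM (adjusted p = 0.49). The muscarinic receptor Chrm2 fell by 1.17 (adjusted p = 0.0305), a call that was lost without WT mouse 4909 or 5356 or Taz-KO mouse 5300 or 5301. Grk5, a kinase that shuts receptors off, rose from 194 ± 81.4 to 438 ± 68.6 CPM (1.13, adjusted p = 0.0336). It was at 412 CPM in WT fibroblasts, above its WT level in CMs, and the call was lost without WT mouse 4686 or 4909 or Taz-KO mouse 4910, 5300 or 5301. The counts of the list were 3 lower and 1 higher without Taz-KO mice 4685 and 5301, and 3 were lower without WT mouse 4909 or 5356.

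At the intercalated disc, which couples CMs end to end, 5 of 18 genes were lower. Desmosomal genes were among them: Dsg2 fell from 212 ± 21.2 to 115 ± 26.7 CPM (-0.92, adjusted p = 0.0183), Dsc2 from 77.0 ± 4.68 to 47.1 ± 4.05 CPM (-0.77, adjusted p = 0.00841) and Jup by 0.80 (adjusted p = 0.0129). Nectin2, a cell adhesion protein, fell by 1.22 (adjusted p = 0.00423), and Itga7, a laminin receptor chain, by 0.76. The gap junction gene Gja1 was at 419 ± 83.9 and 443 ± 135 CPM (adjusted p = 0.968). Without Taz-KO mice 4685 and 5301, 2 genes of the list were called lower, and Dsg2, Jup and Itga7 did not pass.

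The 10 largest increases and 10 largest decreases were taken among genes at the thresholds of the study (adjusted p below 0.001, absolute log2 fold change above 0.58) that did not overlap between genotypes and reached a mean of 10 CPM. Ranked by fold change in this way, the increases favour genes near 0 in WT. Tenm4, a large transmembrane protein of cell contacts (chr7:96171246-96911093, plus strand), was at 3.44, 4.51, 5.16 and 3.19 CPM in WT mice 4686, 4909, 5355 and 5356. It was at 1758, 1501, 1119 and 1666 CPM in Taz-KO mice 4685, 4910, 5300 and 5301. The genotypes were far apart (log2 fold change 8.51, SE 0.33, adjusted p = 2.97e-07). Gm15414, Gm15413, Gm15412 and C230038L03Rik, annotated inside Tenm4 on the other strand, rose by 9.56, 6.38, 7.79 and 4.13. Whether counting used the strand is not given in the sources used here. Whether reads were shared between Tenm4 and these genes was not tested.

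Other large increases were those of Vmn2r3, annotated as a vomeronasal receptor, from 0.206 ± 0.182 to 253 ± 92.3 CPM (10.30, adjusted p = 8.61e-06), and Soat2, which esterifies cholesterol, from 0.262 ± 0.0872 to 56.2 ± 12.8 CPM (7.70, adjusted p = 2.97e-07). Vmn2r3 belongs to a multigene family, and whether reads were shared with related genes was not tested. Ptprt, a receptor phosphatase, rose from 3.61 ± 1.58 to 215 ± 43.8 CPM (5.87, adjusted p = 1.62e-05), and Mei4, a gene of meiotic recombination, from 0.470 ± 0.0779 to 47.5 ± 8.68 CPM (6.61, adjusted p = 8.70e-07). The noncoding genes Gm50024 and Gm42529 rose by 10.92 and 6.19. Gm42529 overlaps Brca2 and Gm42531 on the other strand, which rose by 2.73 and 5.01, and Ostn overlaps Gm32312, which rose by 8.84.

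Of the 10 largest decreases, 6 were noncoding in the annotation, as were 25 of the 89 decreases at the same limits (28.1%), 32 of the 153 increases (20.9%), 19.6% of all annotated genes tested and 716 of the 9515 of these with a mean of at least 10 CPM in a genotype (7.52%). Gm26862 was at 234, 195, 250 and 284 CPM in WT and 15, 13.8, 16.2 and 20 CPM in Taz-KO mice 4685, 4910, 5300 and 5301 (-3.95, SE 0.25, adjusted p = 7.38e-06). Rmst and Gm20757, which lie 6131 bases apart on the same strand of chromosome 10, fell by 4.04 and 3.91, and Gm24474 by 3.91. Gm19689 and 2310020H05Rik fell by 3.78 and 3.93. All 6 were less frequent in WT fibroblasts, between 2.86 and 32.0 CPM. Gm26862 overlaps Gm9934 and Gm24474 overlaps Gm32369 on the other strand, which fell by 2.74 and 3.29. On the same strand, Gm26862 overlaps Fam181b and Gm24474 overlaps Gm48866. Whether reads were shared between the overlapping genes was not tested here either.

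The other 4 were coding genes. Strit1, a micropeptide that activates the calcium pump of the store, was at 9.57, 15.6, 13.9 and 7.29 CPM in WT and 0, 0.283, 0.440 and 0.378 CPM in Taz-KO mice 4685, 4910, 5300 and 5301 (-5.23, SE 0.39, adjusted p = 1.77e-05). It was as frequent in WT fibroblasts, at 11 CPM, so its UMIs cannot be assigned to CM nuclei alone. Clcn1, the chloride channel of skeletal muscle, was at 30.0 to 51.9 CPM in WT and 1.76 to 3.49 CPM in Taz-KO (-4.29, adjusted p = 9.87e-06), and 4.41 CPM in WT fibroblasts. Shisa6, an auxiliary protein of glutamate receptors in brain, fell from 18.1 ± 3.73 to 0.551 ± 0.166 CPM (-4.98, adjusted p = 9.45e-06), and the last of the 4 is Scn4a.

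Rpl3l, a ribosomal protein made in place of Rpl3 in striated muscle (chr17:24727820-24736143, plus strand), was at 251, 178, 237 and 188 CPM in WT mice 4686, 4909, 5355 and 5356. It was at 24.4, 26.0, 30.7 and 21.5 CPM in Taz-KO mice 4685, 4910, 5300 and 5301. The spread within each genotype was small beside the gap (log2 fold change -3.12, SE 0.17, adjusted p = 2.71e-06). Rpl3 was at 41.3 ± 18.6 and 55.8 ± 29.5 CPM (adjusted p = 0.679). Of the 78 ribosomal protein genes tested, Rpl29 was the 1 called higher (1.08, adjusted p = 0.0196), a call lost without Taz-KO mouse 4685, and after a subtraction of ambient RNA set by fibroblast markers 19 were.

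Of 17 mitochondrial chaperones and proteases, 5 were higher: the protease Lonp1 from 17.8 ± 4.97 to 62.0 ± 18.2 CPM (1.73, adjusted p = 0.0003), the chaperones Hspa9 and Dnaja3 by 1.14 and 0.91, and Hspe1 and Afg3l2 by 0.81 and 0.63, with Hspe1 lost without any mouse other than WT 4686 or 5356, and Afg3l2 any other than Taz-KO 5300. The count was 2 without Taz-KO mice 4685 and 5301 and 3 without Taz-KO mouse 4685, 4910 or 5301 or WT mouse 4909 or 5355, and Lonp1 was at 70.7 CPM in Taz-KO fibroblasts. Among 19 genes of the unfolded protein response of the endoplasmic reticulum, the sensors Ern1 (56.7 ± 1.46 to 305 ± 122 CPM, 2.39, adjusted p = 0.000527) and Atf6 (1.27, adjusted p = 0.00591) were higher, but the chaperone Hspa5, a main target, was at 177 ± 73.9 and 116 ± 50.4 CPM (adjusted p = 0.196). The 2 calls are 10.5% of the list, against 8.74% of all genes called higher. The Atf6 call was lost without Taz-KO mice 4685 and 5301 (adjusted p = 0.0531), and the number called was 3 without WT mouse 4686 or 5355, 4 without Taz-KO mouse 5301 and 6 with the ambient share set by fibroblast markers subtracted. None of 14 cytosolic heat shock genes passed.

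Of 21 antioxidant genes, Srxn1, the regulator Nfe2l2 and Gss, of glutathione synthesis, were higher (1.25, 1.05 and 0.90) and Nqo1 lower (-0.85), which makes 19% called, against 14.6% of all genes. Without Taz-KO mice 4685 and 5301, the calls of Nfe2l2 and Nqo1 were lost (adjusted p = 0.0919 and 0.0503). Of 19 cardiac transcription factors, Tbx5 fell from 75.8 ± 6.20 to 43.1 ± 3.97 CPM (-0.88, adjusted p = 0.00334) and Nfatc1 from 36.3 ± 1.39 to 23.6 ± 0.881 CPM (-0.68, adjusted p = 0.00758), with Hey2 and Hopx called lower in addition. Hey2 was lost under 10 of 17 alternatives, among them leaving out any mouse other than WT 4686 or 5355, and Hopx under 3, among them leaving out WT mouse 4909 or Taz-KO mice 4685 and 5301. The clock list held 1 call among 19 genes, Rora (-1.08), which is 5.26%, against 5.85% of all genes called lower. Of 14 immediate early genes, Fos, Nr4a1 and Btg2 were called lower (-2.69, -2.10 and -1.68). None of them was called without Taz-KO mouse 4685 or 4910, and Nr4a1 and Btg2 also not without WT mouse 4909 or Taz-KO mouse 5300. The lists of cardiolipin, fusion and cristae, the calcium uniporter, energy transfer and NAD metabolism held 14, 18, 8, 15 and 15 tested genes. The shares called lower were 7.14, 5.56, 12.5, 6.67 and 13.3%, against 5.85% of all genes, and none was called higher. The calls were Taz, Pink1 (-0.91), Mcur1 (-0.53), Ak1 (-0.82), Naprt (-1.54) and Nadk2 (-1.04). Pink1 was lost without WT mouse 4909 or Taz-KO mouse 5300, and the calls of Taz, Pink1, Mcur1 and Ak1 without Taz-KO mice 4685 and 5301. Crls1, which makes cardiolipin, was at 13.5 ± 1.37 and 19.2 ± 2.94 CPM (adjusted p = 0.0766).

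The 18 genes of the rule are given without a test. The 5 CM genes come first: Ryr2, the calcium release channel, was at 10831 to 13589 CPM in WT and 9119 to 12660 CPM in Taz-KO. Ttn, the spring of the sarcomere, was at 21031 to 34607 and 17228 to 30982 CPM, and Ctnna3, of the intercalated disc, at 4196 to 5407 and 3210 to 4201 CPM. The ranges of all 3 overlapped between genotypes. Fhod3 was at 2296 to 3114 CPM in WT and 1664 to 2485 CPM in Taz-KO, and Rbm20, a splicing factor of Ttn, at 3642 to 4608 and 2976 to 4435 CPM.

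The other 13 genes of the rule had an upper limit. Of the fibroblast genes, Gpc6 was at 165 to 214 CPM in WT and 50 to 146 CPM in Taz-KO, Bicc1 at 99.7 to 147 and 21.3 to 89.4 CPM, and Pdgfra at 22.0 to 76.6 and 6.05 to 53.2 CPM. The endothelial genes Ptprb, Flt1 and Cyyr1 were at 34.8 to 70.4 CPM in WT and 7.56 to 68.1 CPM in Taz-KO, and the macrophage genes F13a1, Mrc1 and Cd163 at 8.34 to 91.8 and 3.53 to 78.1 CPM. The atrial genes Myl7, Myl4, Sln and Dkk3 were at 2.19 to 34.3 CPM in WT and 0.126 to 46.8 CPM in Taz-KO. In the Taz-KO group mouse 5301 was the lowest for each of these 13 genes.

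The effect of Taz-KO in ventricular CMs was compared with that in 1029 atrial CM nuclei, which met the same rule but with atrial genes above 3 times their library share. Taz-KO mouse 4685, with 7 atrial nuclei, was left out of this fit, which leaves 4 WT and 3 Taz-KO mice. Of 15025 genes, 42 (0.28%) differed in effect, 18 of them with a higher and 24 with a lower log2 fold change in atrial CMs, and 1064 had an unadjusted p below 0.05. No member of the amino acid transporter, one-carbon or synthetase lists was among the 42. The atrial counts are small, so a difference that was missed is not shown to be absent; without Taz-KO mice 4685 and 5301, 116 genes differed.

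Some effects of Taz-KO differed between ventricular and atrial CMs. Shisa6 fell from 18.1 to 0.551 CPM in ventricular CMs and was at 28.3 and 12.1 CPM in WT and Taz-KO atrial CMs, where its change did not pass (adjusted p = 0.242), a difference in log2 fold change of 3.76 (SE 0.36, adjusted p = 3.16e-10). Clcn1 fell from 43.5 to 2.44 CPM in ventricular CMs and was at 47.7 and 24.1 CPM in atrial CMs (2.74, SE 0.31, adjusted p = 4.53e-08). Gabrg3, a GABA receptor chain, rose from 3.11 to 61.0 CPM in ventricular CMs and was at 24.0 and 66.8 CPM in atrial CMs (-2.69, adjusted p = 3.27e-08). The changes of Clcn1 and Gabrg3 within atrial CMs had adjusted p-values of 0.059 and 0.0567. Both populations thus ended near the same level of Gabrg3 in Taz-KO, from different WT levels.

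The relaxin receptor Rxfp1 rose from 1.07 to 6.58 CPM in ventricular CMs and was at 63.9 and 37.4 CPM in atrial CMs, a difference in log2 fold change of -3.02 (SE 0.27, adjusted p = 1.16e-10). Its atrial levels overlapped between genotypes and did not differ past the test (adjusted p = 0.483). Fmn2, an actin nucleator, had means of 1.12 and 1.08 CPM in ventricular CMs and of 2.26 and 17.2 CPM in atrial CMs (2.98, adjusted p = 0.0038). Its ventricular estimate was near 0 and changed sign under 6 of 17 alternatives. Nppb was at 69.6 and 52.6 CPM in ventricular and 75.1 and 105 CPM in atrial CMs (0.87, adjusted p = 0.00501). The atrial means above rest on 23 to 230 nuclei a mouse. The atrial nuclei of Taz-KO mouse 5301 held 91800 UMIs outside mitochondrial genes, so its values for these genes rest on very few UMIs. Its atrial Fmn2 and Shisa6 values were both 10.9 CPM. The Taz-KO means give this mouse the same weight as mouse 4910, with 2297314 UMIs.

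**Figure D5:**
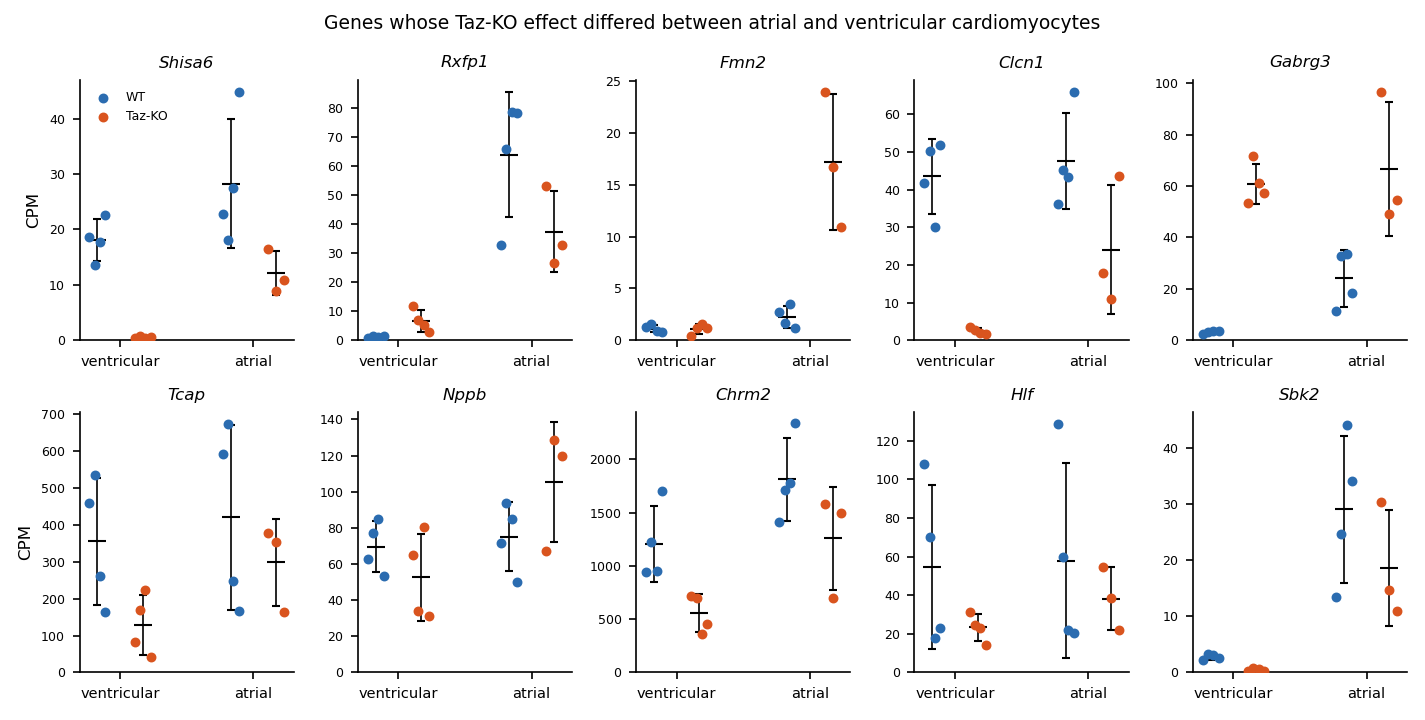
CPM on the y axis for 10 genes in ventricular and atrial CMs, with each point 1 mouse (blue WT, orange Taz-KO) and bars at mean and SD of 4 WT mice and 4 Taz-KO mice (3 in atrial CMs). Shisa6 and Clcn1 lie near 0 in Taz-KO ventricular CMs alone, Rxfp1 is higher in Taz-KO in ventricular CMs and overlaps between genotypes in atrial CMs, and Gabrg3 reaches 61.0 and 66.8 CPM in Taz-KO.

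Against 34243 fibroblast nuclei, 770 of 20035 genes (3.84%) differed in their response, 280 with a higher and 490 with a lower log2 fold change in fibroblasts. Stress response lists were among them, with 7 of 13 amino acid transporters and 6 of 18 one-carbon and related enzymes. So were 9 of 20 cytosolic synthetases and 5 of 19 stress factors, and all these effects were smaller in fibroblasts. That direction was not particular to these lists. Of the 770 genes, 635 were also called in ventricular CMs, and for all 635 the difference ran against the ventricular change. The log2 fold change of Trib3 in fibroblasts differed by -3.76 from that in CMs (adjusted p = 0.00185), with 6.65 CPM in WT and 25.4 CPM in Taz-KO fibroblasts. For Gdf15 the difference was -0.10 (SE 0.49, adjusted p = 0.948).

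Tenm4 reached 158 CPM in Taz-KO fibroblasts against 1511 CPM in CMs (difference -4.67, SE 0.38, adjusted p = 0.000287). Trim66, a chromatin protein, was at 3.67 and 4.53 CPM in fibroblasts and rose from 0.337 to 13.7 CPM in CMs (-4.99, adjusted p = 1.90e-05). Kcnd2, Cacna1g, Crhr2 and Adra1a also differed, with log2 fold changes in fibroblasts of 0.033, -0.051, -1.56 and -0.90, none of which passed. No member of the beta-oxidation or fatty acid uptake list passed the test of the difference, which does not show that their effects were alike. The CM genes of the rule summed to 2816 to 7004 CPM in fibroblast nuclei, and the part of RNA from other cells in these comparisons was not tested.

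Against 22857 endothelial nuclei, 323 of 18451 genes (1.75%) differed, 106 with a higher and 217 with a lower log2 fold change in endothelial cells. Jcad, a protein of endothelial junctions, was at 131 and 135 CPM in endothelial cells of WT and Taz-KO hearts and rose from 14.6 ± 2.26 to 200 ± 62.5 CPM in CMs (-3.72, adjusted p = 0.000109). Soat2 reached 14 CPM in Taz-KO endothelial cells and 56.2 CPM in CMs (-4.00, adjusted p = 0.000309). Of the transporters 5 differed, of the synthetases 5, of the stress factors 4 and of the one-carbon enzymes 3. Each of these effects was smaller in endothelial cells. Of the 323 genes, 300 were also called in ventricular CMs, and for all 300 the difference ran against the ventricular change.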

How the data were processed

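The authors prepared nuclei from cryopreserved whole hearts and deposited, for each mouse, the unnormalized UMI counts per gene and nucleus that Cell Ranger 6.0.1 gave on the mouse genome mm10 with introns included. Their later removal of ambient RNA and doublets is not part of these counts. The members of the population and all gene lists were chosen with earlier results of these data known. Here, counts of the chosen nuclei were summed per mouse and compared between 4 WT and 4 Taz-KO mice with edgeR 4.0.16 (R 4.3.3): filterByExpr, TMM scaling, robust quasi-likelihood F test, Benjamini-Hochberg adjustment, calls at an adjusted p below 0.05. No doublet caller was run. The tests of atrial CMs, fibroblasts and endothelial cells against ventricular CMs used an interaction term with the mouse as a block. Levels are plain CPM. P-values measure the spread between mice. Scripts were tested on simulated data. At most 200 genes were changed there, against 2730 called in the real data, so the shares recovered may differ for the real fits. The main fit recovered 4.57% of the simulated 2-fold and 86.9% of the 4-fold changes, and the fibroblast interaction 0% and 51.9%. A gene that did not pass is thus not shown to be unchanged.

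Named genes were Taz, the genes of the rule, up to 4 called members of each list with the largest absolute log2 fold change, the 10 highest and 10 lowest genes at the study's thresholds that did not overlap between genotypes and reached a mean of 10 CPM, and 5 genes per interaction. Further called members were named for their roles after their values were seen. Alternatives were DESeq2 1.42.0 and its size factors, limma 3.58.1 for the interactions, no filter, an enrichment of at least 2, at least 2000 UMIs, no nuclei in the top 0.1 of UMIs, an ambient share of 0.2 subtracted, each mouse left out, and Taz-KO mice 4685 and 5301 left out. An ambient share per mouse set by fibroblast markers (4.71 to 28.9%) was added after seeing the data. Both subtractions used the profile of the tenth of barcodes with the fewest UMIs, which differed in depth between libraries and can include nuclei. A call lost after subtraction is thus not shown to come from free RNA. A call is lost when its adjusted p is no longer below 0.05, which can happen at a larger fold change. The ventricular sums held 4587033 to 95454751 UMIs per mouse.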

Additional observations from a re-analysis of the deposited data

Results flagged for a closer look

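Within the 4 mice of a genotype, 1 mouse lay far from the others (Dixon's test) in 18 of 228 groups of values tested, where chance gives about 5%. WT mouse 4686 was the low one for the fatty acid enzymes Acaa2 (121 CPM) and Acadm (196 CPM), the channel chain Scn4b (2.81 CPM) and Nectin2 (15.5 CPM), and the high one for Pdlim5 (1647 CPM) and Nr4a1 (198 CPM). WT mouse 5355 was high for Vmn2r3 (0.475 CPM) and Gm15414 (0.214 CPM), and WT mouse 5356 low for Hspa9 (74.8 CPM) and high for Gm20757 (168 CPM). Taz-KO mouse 4910 was low for Aldh18a1 (30.2 CPM) and Slc7a5 (25.7 CPM). Taz-KO mouse 5300 was high for Slc7a3 (9.47 CPM), Eno3 (73.9 CPM), Fos (2.33 CPM) and Gm15414 (106 CPM). Rpl29 was high in Taz-KO mouse 4685 (112 CPM) and Orai1 low in Taz-KO mouse 5301 (11.2 CPM).

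The effect of Taz-KO differed between atrial and ventricular CMs, in log2 fold change as atrial minus ventricular and past the interaction test, by 3.76 for Shisa6, -3.02 for Rxfp1, 2.98 for Fmn2, 2.74 for Clcn1, -2.69 for Gabrg3, 1.68 for Sbk2, 1.00 for Hlf, 0.87 for Tcap, 0.87 for Nppb and 0.62 for Chrm2. As fibroblast minus ventricular it differed by -5.73 for Gm50024, -5.59 for Gm15414, -4.99 for Trim66, -4.89 for Gm17114 and -4.67 for Tenm4. As endothelial minus ventricular it differed by -4.20 for Gm15414, -4.19 for Gm17114, -4.01 for Tenm4, -4.00 for Soat2 and -3.72 for Jcad.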

How the results depend on the processing

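No paired analysis was possible because the genotypes share no replicate numbers. With an ambient share of 0.2 subtracted, 925 genes were higher, 683 lower and 67 at the study's thresholds, and without Taz-KO mice 4685 and 5301 there were 672 lower and 185 at those thresholds. DESeq2 gave 1397 genes at those thresholds and no filter 571. Leaving out each mouse gave 947 to 1562 genes higher, 715 to 1085 lower and 169 to 343 at the study's thresholds (lowest without WT mouse 5355, and 174, 176, 178, 190, 203 and 203 without WT 4909, WT 4686, Taz-KO 4910, WT 5356, Taz-KO 4685 and Taz-KO 5300). The log2 fold change of Taz was -0.60 without the nuclei highest in UMIs, -0.53 with the ambient share of 0.2 and -0.75 without both libraries, none of them called, and -0.69 to -0.44 without single mice. The interaction with atrial CMs held 116 genes without both libraries. The share of nuclei with stress transcripts differed by 28.7 to 36.0 percentage points without single mice and by 10.5 for at least 2 UMIs. The sign of 2 genes turned: Lars2 was at 0.99 with the ambient share set by fibroblast markers, and Fmn2 at 0.070 without the nuclei highest in UMIs, 0.12 without both libraries, 0.47 with that ambient share and -0.13 to 0.16 without single mice (0.14, 0.01 and 0.16 without Taz-KO 4685, WT 4686 and WT 4909). The same ambient share gave 1518 genes higher and 1568 lower (49.2% of calls higher, against 59.9%). Taz and the further members named for their roles are not in the counts that follow, and some of their calls were lost too, among them Taz, Hadha, Hadhb, Csrp3 and Pfkm. Of the 113 other named genes that were called, 112 were tested under all 17 alternatives, and 76 of them kept their call under each. Without both libraries, 31 of the 113 were lost. The cause was not tested. Taz-KO mice 4685 and 5301 gave 163 and 557 ventricular nuclei, and 7 and 23 atrial ones.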
